A study of Rattus norvegicus with 22 samples.

Results

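The genes described are 5 regulators of iron in the rat: Hamp, Ireb2, Tf, Tfrc and Slc40a1. They were taken by symbol, with every probe set of the array that carries one of these names, out of 10411 gene symbols measured. This gave 8 of the 15866 probe sets tested. Of these, 7 carry 1 symbol: 1 for Hamp, 1 for Ireb2, 2 for Tfrc and 3 for Slc40a1. The probe set that names Tf also names Srprb, a subunit of the signal recognition particle receptor. It is called the shared Srprb/Tf probe set, its values are given as its own, and it is left out of the counts of members. So 4 of the 5 genes have a probe set of their own.

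Hamp encodes hepcidin, a peptide hormone made by hepatocytes that binds ferroportin, the iron exporter encoded by Slc40a1, and causes its breakdown, so that iron stays inside gut, liver and macrophage cells. Hepcidin transcription is raised by iron through BMP and SMAD signalling and by inflammation through IL-6 and STAT3, and is held down when red cell production is high. In the circulation iron travels on transferrin (Tf), which the liver secretes, and cells take it up through the transferrin receptor (Tfrc), most abundantly in red cell precursors. Ireb2 encodes iron regulatory protein 2, which in iron-poor cells binds stem-loops in messenger RNAs, stabilising that of Tfrc and blocking the translation of others, and which is itself broken down when iron is plentiful. The fetus draws all of its iron across the placenta from the mother, and the fetal liver is a blood-forming organ until around birth.

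The study asked how a calcium sensitiser, EMD 82571, harms the rat embryo, with retinoic acid, a known teratogen, alongside it. RNA of 22 samples from pregnant Wistar rats and their offspring was measured on 1 array each, and the deposited values are log2 probe set levels. The groups are retinoic acid at 12 mg/kg/day, vehicle control, and EMD 82571 at 50 mg/kg/day (EMD50) and 150 mg/kg/day (EMD150). Dosing began on gestational day 6, and the sources give both day 11 and day 17 as its end. Samples of day 12 were taken before day 17, so only the earlier end can apply to them. Tissues were embryo liver of day 20, maternal liver of days 20 and 12, embryo bone of day 20 and whole embryo of day 12, which make 5 strata. Each stratum held 1 array per treatment, except for a pair of retinoic acid arrays in both strata of day 12. The pair is labelled RA5 and RA56 (replicates 1 and 2 here), all retinoic acid arrays of day 20 are labelled RA56, and the codes are not explained. All dams were pregnant, so no comparison with a non-pregnant liver can be made. Whether samples were pooled or shared a dam is not stated, and p-values measure the spread between these samples only.

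Defining genes of each tissue stood where the labels put them. On the embryo liver arrays 8 hepatocyte markers averaged 12.45 to 12.66 (log2), against 13.71 to 13.96 on the maternal liver arrays. The 7 erythroid markers measured averaged 11.89 to 12.05 in embryo liver, against 8.45 to 9.10 in maternal liver. In embryo bone, 6 bone and cartilage markers averaged 12.16 to 12.52, against at most 8.40 in the other strata. Some arrays carried genes of another tissue. The retinoic acid array of maternal liver at day 20 had a mean of 10.75 over 6 skeletal muscle markers, against 7.45 to 7.68 on the other maternal liver arrays. Pancreatic acinar markers averaged 10.95 and 10.27 on the control and EMD50 arrays of maternal liver at day 12 and 9.59 on the control array at day 20, against 7.59 to 7.99 on the remaining maternal liver arrays. The EMD50 bone array had a gap of 2.72 between the 3′ and 5′ probe sets of Gapdh, against 0.57 to 0.86 elsewhere, a sign of lower RNA quality. In a bulk sample, fewer cells of a type and less RNA per cell cannot be told apart.

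Each gene had its own distribution over the tissues. Levels below are log2 means ± SD over the arrays of a stratum (n = 4, or n = 5 at day 12). The gene with the widest range among those with a probe set of their own was Hamp, at 11.92 ± 0.56 in embryo liver, 8.71 ± 0.40 in maternal liver of day 20, 12.15 ± 0.67 in maternal liver of day 12, 7.75 ± 0.29 in embryo bone and 7.60 ± 0.27 in whole embryo. Neither embryo bone against whole embryo nor maternal liver of day 12 against embryo liver differed by the limma fit of all arrays (adjusted p = 0.624 and 0.585), while maternal liver of day 20 was above embryo bone by 0.96 ± 0.29 (SE, adjusted p = 0.00804). Hepcidin transcript was thus high in 2 of the 3 liver strata, and in the third it stood nearer to the level of tissues that are not liver.

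Tfrc was highest in embryo liver, at 12.57 ± 0.34 on its brighter probe set (BF417032), followed by whole embryo at 11.38 ± 0.38, maternal liver of day 20 at 10.88 ± 0.54, maternal liver of day 12 at 10.59 ± 0.34 and embryo bone at 10.51 ± 0.67. Embryo liver was above whole embryo by 1.27 ± 0.25 (SE, adjusted p = 0.00018), and the other neighbours in this order did not pass the test (adjusted p = 0.129 to 0.992). On the other probe set (M58040) embryo liver was also above whole embryo (1.38 ± 0.31, adjusted p = 0.000677), and whole embryo was above maternal liver of day 12 by 0.73 ± 0.29 (adjusted p = 0.0324), with overlapping arrays in both cases. Slc40a1, on its brightest probe set (NM_133315), had 11.33 ± 0.27 in embryo liver, 11.71 ± 0.40 in maternal liver of day 20, 11.42 ± 0.06 in maternal liver of day 12, 9.74 ± 0.23 in embryo bone and 9.57 ± 0.55 in whole embryo. The 3 liver strata stood above the other tissues, with embryo liver 1.58 ± 0.20 above embryo bone (SE, adjusted p = 1.6e-06). The neighbours among the livers, and bone against whole embryo, did not pass the test on this probe set. On AI229664 embryo bone was above whole embryo by 0.91 ± 0.17 (adjusted p = 0.000214), and on AI407028 maternal liver of day 12 was above embryo liver by 0.59 ± 0.18 (adjusted p = 0.0128).

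Ireb2 showed no step between neighbouring tissues that passed the test. It averaged 7.60 ± 0.33 in embryo liver, 8.61 ± 1.15 in maternal liver of day 20, 9.11 ± 0.20 in maternal liver of day 12, 7.85 ± 0.65 in embryo bone and 8.17 ± 0.74 in whole embryo. All 4 neighbouring pairs in its order overlapped (limma, adjusted p = 0.0642 to 0.648). Strata further apart in the order did differ. For maternal liver of day 12 against whole embryo all 7 member probe sets were called, Ireb2 among them. The shared Srprb/Tf probe set was near the top of the array's range in all livers, at 14.62 ± 0.03 in embryo liver, 14.78 ± 0.04 in maternal liver of day 20 and 14.72 ± 0.02 in maternal liver of day 12. It was lower and far more variable in embryo bone (10.71 ± 1.34) and whole embryo (10.34 ± 1.55). In these comparisons of tissues many genes differ: the share of all probe sets called was 46.6% for embryo bone against whole embryo, 72.9% for embryo liver and 71.1% for maternal liver of day 20 against whole embryo, and 55.2%, 58.1% and 56.5% for embryo liver, maternal liver of day 20 and maternal liver of day 12 against embryo bone. It was 33% for maternal liver of day 20 and 37.8% for maternal liver of day 12 against embryo liver, and 4.47% for day 20 against day 12 in maternal liver, all in the fit of all arrays. For maternal liver of day 12 against whole embryo, 11072 of the 15866 probe sets were called in the same fit.

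**Figure D1:**
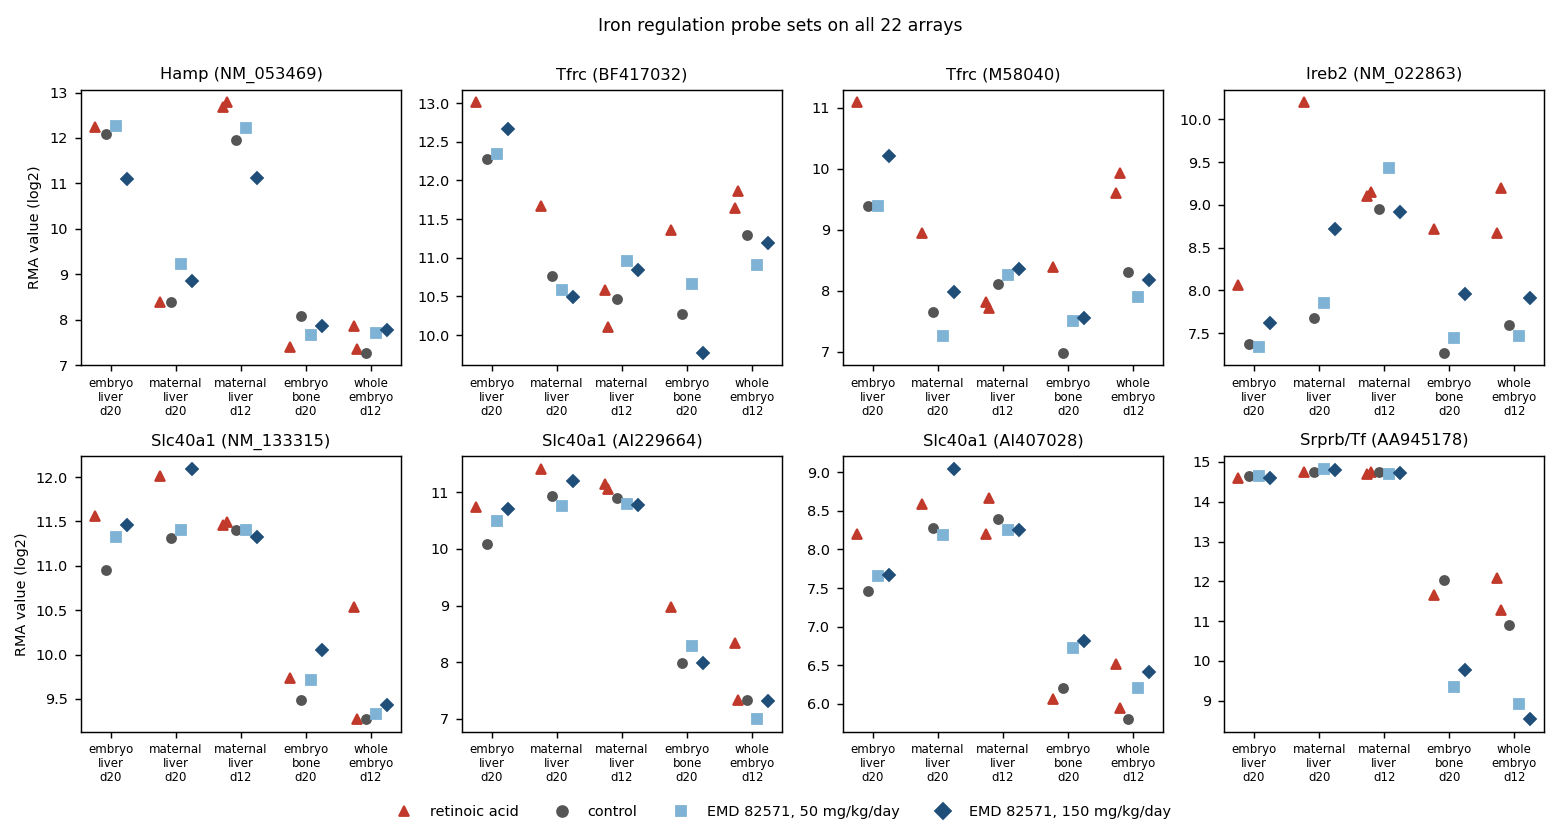
RMA values (log2, vertical axis) of the 8 probe sets on all 22 arrays, by stratum (horizontal axis) and treatment (symbols). Hamp lies between 8.38 and 9.22 in maternal liver of day 20 and between 11.09 and 12.78 in embryo liver and in maternal liver of day 12.

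Maternal liver of day 20 was compared with that of day 12, within treatment, to see how late pregnancy differs from mid pregnancy. Length of dosing and time since the last dose can also differ between these days, and cannot be told apart from the day. Hamp fell steeply. In maternal liver of day 20 it had 8.38 with retinoic acid, 8.40 in control, 9.22 with EMD50 and 8.84 with EMD150. In maternal liver of day 12 it had 12.69 and 12.78 with retinoic acid, 11.96 in control, 12.21 with EMD50 and 11.13 with EMD150. Every array of day 20 lay below every array of day 12, by a wide margin. The difference was -3.38 ± 0.28 (log2, SE), or 10.4-fold lower (limma, adjusted p = 0.001), lower in 4 of 4 treatments by values between -4.36 and -2.28. Of all 15866 probe sets, 2 had a larger absolute difference, and 6.08% of all were called in this comparison. With each of the 9 arrays left out in turn, the arrays with muscle or acinar genes included, the difference stayed between -3.71 and -2.94 and was called (adjusted p up to 0.00839). Of the 8 hepatocyte markers 1 was higher (Apoa1) and 1 lower (Cyp2e1) at day 20, and their means were 13.90 to 13.96 at day 20 and 13.71 to 13.76 at day 12.

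The promoter of Hamp is shown because this gene carries the clearest change and because the sites through which BMP and STAT3 signals act on it in human and mouse lie close to the gene's start. In the rat window of 250 bases before the start (RefSeq, build GRCr8, chr1:95300272-95300521, minus strand), capitals mark the BMP response element GGCGCC and the STAT motif TTCNNNGAA. Both motifs read the same on both strands.
Hamp promoter: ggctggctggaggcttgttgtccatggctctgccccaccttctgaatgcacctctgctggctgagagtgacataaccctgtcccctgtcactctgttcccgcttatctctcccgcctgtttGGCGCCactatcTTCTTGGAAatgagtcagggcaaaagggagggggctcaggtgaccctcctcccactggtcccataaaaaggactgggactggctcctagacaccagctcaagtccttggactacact
The BMP response element begins 129 bases and the STAT motif 117 bases before the gene's start. Of 33469 rat promoter windows of this length, 8.69% hold GGCGCC and 7.67% hold TTCNNNGAA. The window of Tfrc also holds GGCGCC, 118 bases before its start, and those of Ireb2 and Slc40a1 hold neither. The E-box motif CACGTG, searched on both strands, is in none of the 5 windows and in 5.59% of all. The TATA box, searched as TATAAA on both strands, lies 52 bases before the start of Tf and in no other member's window, against 12.9% of all windows. The retinoic acid receptor half-site, searched as AGGTCA on both strands, lies 87 bases before the start of Tf alone among the members, against 14.1% of all. A match is a description of the letters and shows no binding.

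None of the other 6 member probe sets was called between the days. Ireb2 in maternal liver of day 20 had 10.20 with retinoic acid, 7.68 in control, 7.85 with EMD50 and 8.72 with EMD150, against 9.10 and 9.15 with retinoic acid, 8.96 in control, 9.43 with EMD50 and 8.92 with EMD150 at day 12. It was lower at day 20 in control and both EMD 82571 doses and higher with retinoic acid, and the difference was -0.38 ± 0.37 (limma, SE, adjusted p = 0.597). Tfrc showed the same split by treatment on 1 of its 2 probe sets: on M58040 it had 8.94 with retinoic acid, 7.65 in control, 7.25 with EMD50 and 7.98 with EMD150 at day 20, against 7.81 and 7.71 with retinoic acid, 8.10 in control, 8.26 with EMD50 and 8.35 with EMD150 at day 12. On BF417032 it was higher at day 20 in control (by 0.30) and with retinoic acid, and lower with both EMD 82571 doses. Without the retinoic acid array of day 20, the one with muscle genes, both Ireb2 and M58040 were called lower at day 20, Ireb2 by -1.02 (adjusted p = 0.0201) and this Tfrc probe set by -0.61 (adjusted p = 0.0171), while Tfrc on BF417032 gave -0.14 and was not called. The part of muscle RNA in this was not tested.

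Slc40a1 was slightly above its level of day 12 on all 3 probe sets, by 0.32 ± 0.14, 0.19 ± 0.10 and 0.19 ± 0.15 (NM_133315, AI229664 and AI407028), and none passed the test (adjusted p = 0.224, 0.297 and 0.516). The shared Srprb/Tf probe set differed by 0.06 ± 0.08 (adjusted p = 0.725). So between these days the transcript of the hormone differed about 10.4-fold, while those of its target ferroportin and of the other members did not pass the test.

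Among 70 other genes of iron handling on the array, 3 were called between the days, a share of 4.29% that lies below the 6.08% of all probe sets. Id1, a common target gene of BMP signalling, was higher at day 20 (9.60 at day 20, 8.76 at day 12) by 0.79 ± 0.18 (adjusted p = 0.0387). Isca1, of iron-sulfur cluster assembly, was higher by 0.51 ± 0.10 (adjusted p = 0.0235), and Steap3, an endosomal iron reductase, fell by 0.32 (adjusted p = 0.0405). The other 21 of 22 measured genes of hepcidin control and all 8 of haem synthesis were not called with all arrays in the fit. Of 12 acute phase genes 1 was higher (A2m) and 1 lower (Orm1), and of 7 erythroid markers 1 was higher (Ahsp, adjusted p = 0.047), a call lost without the retinoic acid array of day 20 and after quantile normalization. Without the retinoic acid array of day 20, a setting chosen after seeing the data, 11 of the 70 iron genes were called, including these 3, with 10.4% of all probe sets called. Among them were 4 of the 22 genes of hepcidin control (Id1, Smad1, Il6r and Il6st, 3 higher and 1 lower) and 2 of the 8 of haem synthesis (Alad and Fech, 1 higher and 1 lower).

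**Figure D2:**
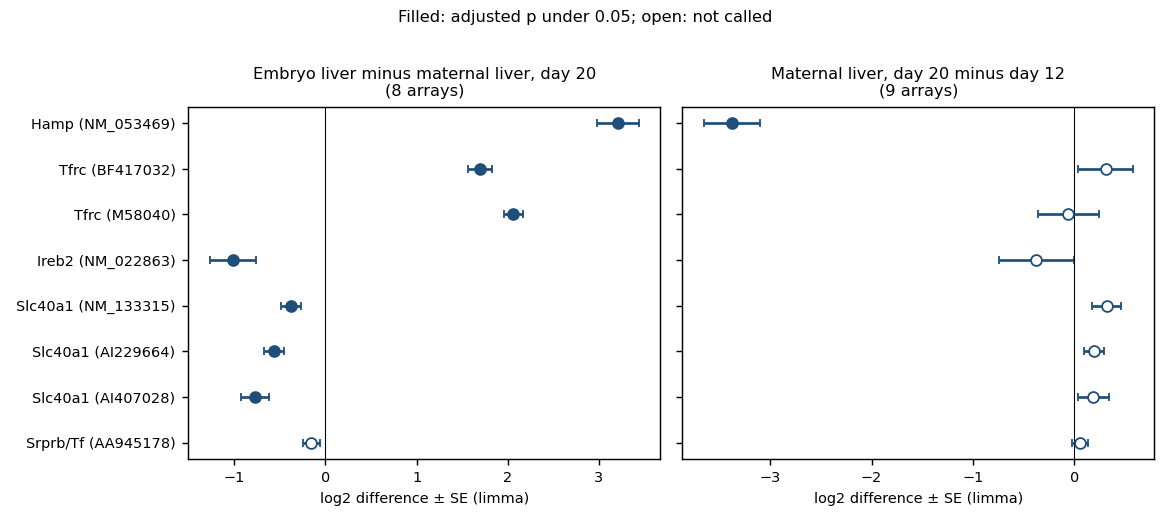
Log2 differences ± SE from limma (horizontal axes) for the 8 probe sets, embryo liver minus maternal liver at day 20 in the left panel and maternal liver of day 20 minus day 12 in the right panel. Hamp is at 3.21 in the left panel and at -3.38 in the right one, where it is the single filled point.

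Embryo liver was compared with maternal liver of the same day and treatment, which sets a growing, blood-forming liver beside that of the mother. Hamp and Tfrc were higher in embryo liver, and Ireb2 and Slc40a1 lower. Hamp had 12.25 with retinoic acid, 12.08 in control, 12.25 with EMD50 and 11.09 with EMD150 in embryo liver, against 8.38, 8.40, 9.22 and 8.84 in maternal liver. The organs did not overlap, and the difference was 3.21 ± 0.23 (SE), or 9.23-fold (limma, adjusted p = 9.64e-06). Together with the day comparison, whose arrays of day 20 it shares, this leaves the late maternal liver as the one liver stratum with little Hamp transcript. All 7 member probe sets were called in this comparison, where 37.5% of all probe sets were.

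Tfrc was higher in embryo liver on both probe sets. On BF417032 it had 13.01 with retinoic acid, 12.28 in control, 12.34 with EMD50 and 12.66 with EMD150 in embryo liver, against 11.67, 10.77, 10.59 and 10.49 in maternal liver, a difference of 1.69 ± 0.14 or 3.24-fold (adjusted p = 1.87e-05). On M58040 the difference was 2.06 ± 0.11 or 4.18-fold (adjusted p = 1.22e-06). Neither probe set overlapped between the organs. Erythroid markers, the genes of the cells in which the transferrin receptor is most abundant, were higher in embryo liver for 7 of 7 measured genes. Their part in the Tfrc difference was not tested.

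Ireb2 was lower in embryo liver by -1.02 ± 0.26 (SE, 2.02-fold, adjusted p = 0.0131). It had 8.06 with retinoic acid, 7.38 in control, 7.34 with EMD50 and 7.62 with EMD150 in embryo liver, against 10.20, 7.68, 7.85 and 8.72 in maternal liver. It was lower in 4 of 4 treatments, by -0.31 in control and -2.14 with retinoic acid, with -0.52 for EMD50 and -1.10 for EMD150. Without the maternal retinoic acid array it was -0.64 and still called. With a robust estimate of the variance its adjusted p was 0.05.

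The exporter Slc40a1 was lower in embryo liver on each probe set. On NM_133315 it had 11.56 with retinoic acid, 10.95 in control, 11.33 with EMD50 and 11.46 with EMD150 in embryo liver, against 12.01, 11.32, 11.41 and 12.09 in maternal liver. The organs overlapped on this probe set, and its difference was the smallest, -0.38 ± 0.11 (adjusted p = 0.0231). On AI229664 it was -0.57 ± 0.11 (adjusted p = 0.00335) and on AI407028 -0.77 ± 0.15 (adjusted p = 0.00373). The call on NM_133315 was lost after quantile normalization (-0.02, adjusted p = 0.924), as was that on AI229664 (-0.27, adjusted p = 0.149), while AI407028 kept it (-0.86, adjusted p = 0.00368). On NM_133315 it was also lost without the control arrays (-0.39 without either, adjusted p = 0.0805 and 0.0778), the EMD150 arrays (-0.30, adjusted p = 0.0856 and 0.0825) or the retinoic acid arrays (-0.36, adjusted p = 0.0632 and 0.0612), for embryo and maternal liver in turn. Of 6 measured macrophage markers, genes of cells rich in ferroportin, 1 was higher and 5 were lower in embryo liver, and their part was not tested. The shared Srprb/Tf probe set was -0.16 ± 0.09 apart (adjusted p = 0.226), and called at -0.27 after quantile normalization (adjusted p = 0.00626).

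In the wider iron pathway 48 of the 70 other iron genes were called between the organs (68.6%), 23 higher and 25 lower in embryo liver. Of all probe sets 37.5% were called, a share that also stands beside the list counts below. Each of these genes is given by its brightest probe set, and calls were frequent among bright ones. A fit of only the probe sets above the median level called 4412, against 5949 of 15866 in the fit of all. The filtered fit leaves out every probe set of lower level, so its share called was well above 37.5%. The 37.5% is therefore a low yardstick for these iron genes. Genes of haem synthesis were higher in 6 of 8 and lower in 1. Alas2, the first enzyme of the pathway in red cells and also 1 of the erythroid markers, was at 13.58 in embryo liver and 9.13 in maternal liver, a difference of 4.45 ± 0.19 (adjusted p = 4.88e-07). Fech, which inserts iron into the ring, was higher by 2.66 and Urod by 2.03. Alas1, the form of the first enzyme used outside red cells, was the member that was lower (-1.06 ± 0.21, adjusted p = 0.00377).

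Both iron regulatory protein genes were lower in embryo liver: Aco1, the gene of iron regulatory protein 1, by -1.29 ± 0.13 (adjusted p = 6.87e-05), and Ireb2 as above. Fbxl5, whose product marks these proteins for breakdown, was lower by -0.59, and Herc2 higher by 0.44. In the list of iron storage 3 of 3 measured genes were higher, with Ncoa4, which carries ferritin to breakdown, at 1.40 ± 0.10 (adjusted p = 8.94e-06). The others measured in this list were Pcbp1 and Pcbp2. The ferritin genes Fth1, Ftl1 and Ftmt had no probe set that names them alone, so the list result holds no ferritin. Of 12 genes of uptake and export, Tfrc and Slc40a1 included, 6 were higher and 5 lower. The endosomal reductases Steap2 (1.23) and Steap3 (1.20) and the iron-binding Lcn2 (1.02) were higher, as Tfrc was. The ferroxidase ceruloplasmin (Cp, -2.51 ± 0.11, adjusted p = 5.4e-07) and the importer Slc39a14 (-1.14) were lower.

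Of 22 genes that act in the control of Hamp, 1 was higher, 9 were lower and 12 were not called in embryo liver, where 37.5% of all probe sets were called. Il6r (-1.20), the BMP-responsive factor Atoh8 (-1.06), Il6st (-0.76), Stat3 (-0.74) and Cebpa (-0.73) led those that were lower, and Jak2 (0.46) was the one higher. In the list of haem uptake and breakdown 2 of 8 were higher and 4 lower, led by Lrp1 (-1.71) and Hpx (-1.14), the receptor and carrier of free haem. Iron-sulfur cluster genes were split, 5 higher and 4 lower of 13, from Glrx5 (1.69) to Fdx1 (-1.43). Epas1, a hypoxia factor whose messenger RNA holds an iron-responsive element, was lower by -2.12. Hepatocyte markers were lower in 5 of 8 and higher in 0, and their part in these differences was not tested. Without the retinoic acid array of maternal liver 44 of the 48 calls remained.

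**Figure D3:**
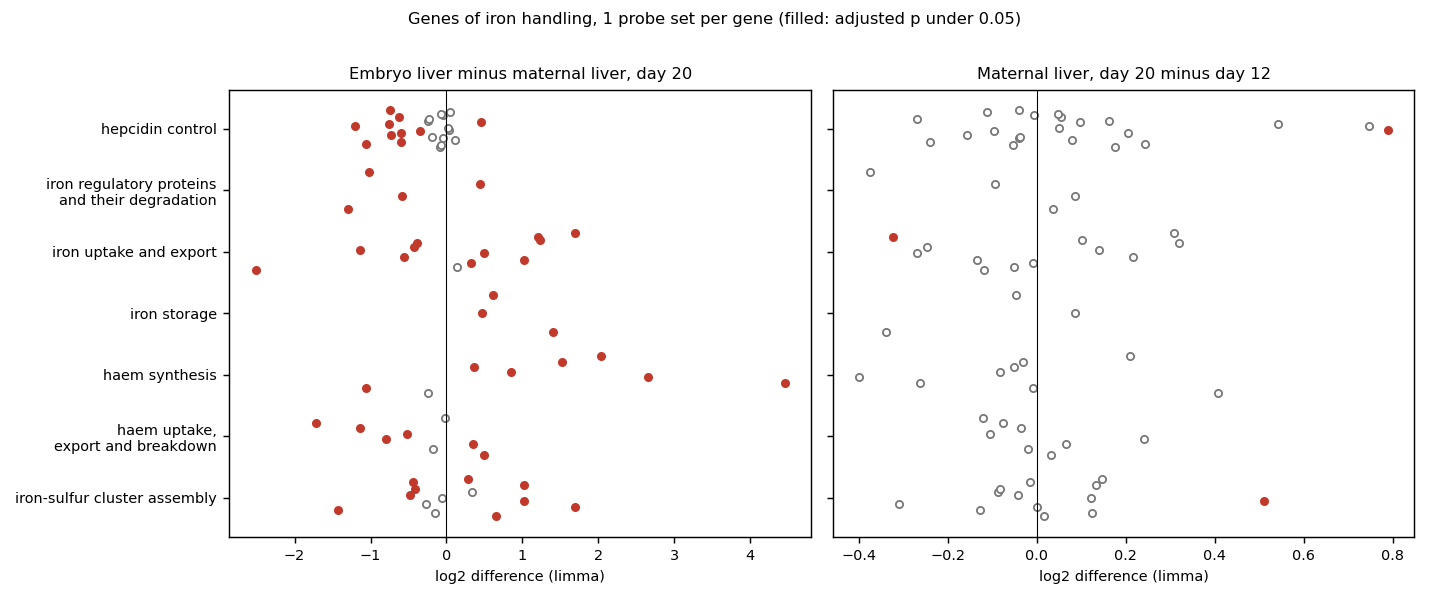
Log2 differences from limma (horizontal axes) of iron handling genes by list, 1 point per gene, filled when called, for embryo liver minus maternal liver at day 20 (left) and maternal liver day 20 minus day 12 (right); the horizontal scales differ. Haem synthesis reaches 4.45 (Alas2) in the left panel, and 3 genes that are no members are filled in the right one.

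Treatments were compared over the 5 strata, since a treatment has 1 array per stratum in most of them. With retinoic acid, 1 of the 7 member probe sets passed the test against control, Ireb2, where 1.83% of all probe sets did. Ireb2 had 8.06 with retinoic acid and 7.38 in control in embryo liver, 10.20 and 7.68 in maternal liver of day 20, and 8.72 and 7.27 in embryo bone. In whole embryo it had 8.68 and 9.19 with retinoic acid, against 7.59 in control, and in maternal liver of day 12 it had 9.10 and 9.15, against 8.96. All 7 retinoic acid arrays were above the control of their stratum, from 0.15 in maternal liver of day 12 to 2.51 in that of day 20. The fitted difference was 1.16 ± 0.24 (SE, limma, adjusted p = 0.0259).

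That call depended on single arrays. With one array left out it ranged from 0.94 to 1.31 and was lost in 8 of 22 cases: without the control of embryo bone (adjusted p = 0.115), embryo liver (0.0795), maternal liver of day 20 (0.109) or whole embryo (0.0595), and without the retinoic acid array of embryo bone (0.0651), embryo liver (0.077), maternal liver of day 20 (0.0676) or replicate 2 of whole embryo (0.0577). With 3 retinoic acid arrays left out together (maternal liver of day 20, embryo bone and replicate 2 of whole embryo) it was 0.66 (adjusted p = 0.394). Of these 3, the maternal liver array stood apart from its stratum by its muscle genes. The bone array had the highest muscle mean of its stratum (11.766, against 11.002 to 11.475) and the lowest erythroid mean (9.29, against 9.39 to 9.78). Replicate 2 of whole embryo had a hepatocyte mean of 9.30, close to replicate 1 (9.24) and above the 7.93 to 8.39 of the other treatments.

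Tfrc and Slc40a1 did not pass over all strata. Tfrc on M58040 had 11.09 with retinoic acid and 9.38 in control in embryo liver, 8.94 and 7.65 in maternal liver of day 20, 8.39 and 6.98 in embryo bone, and 9.59 and 9.92 against 8.30 in whole embryo. In maternal liver of day 12 the order was turned round, with 7.81 and 7.71 on the retinoic acid arrays and 8.10 in control. The difference over all strata was 1.03 ± 0.27 (adjusted p = 0.0587) on this probe set and 0.51 ± 0.22 (adjusted p = 0.308) on BF417032. On Slc40a1 it was 0.56 ± 0.15 (AI229664, adjusted p = 0.0666), 0.46 ± 0.16 (NM_133315, adjusted p = 0.195) and 0.28 ± 0.16 (AI407028, adjusted p = 0.522). On Hamp it was 0.19 ± 0.24 (adjusted p = 0.836). Leaving out single arrays brought Tfrc on M58040 past the threshold without the control (adjusted p = 0.0371), EMD50 (0.0405) or either retinoic acid array (0.0246 and 0.0166) of maternal liver at day 12, and Slc40a1 on AI229664 without the EMD150 array of embryo bone (0.0476). At an unadjusted p under 0.05 there were 5 of 7 member probe sets, and 1976 of all 15866. Among the 70 other iron genes 2 were called (2.86%, against 1.83% of all probe sets), Ncoa4 (0.55 ± 0.13, adjusted p = 0.039) and Cp (0.76 ± 0.19, adjusted p = 0.0416), both named after their values were seen. The acute phase protein Crp was called higher too (0.81 ± 0.21, limma, adjusted p = 0.0497). In embryo bone, embryo liver and whole embryo together the liver genes Apoh, Cyp2e1, Orm1 and Crp were called higher beside Cp. There 1.9% of all probe sets were called, and the others of the 8 hepatocyte markers and 12 acute phase genes measured were not. Their part in the Cp value was not tested.

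When the effect was allowed to differ between the mother and the conceptus (embryo liver, embryo bone and whole embryo together), Tfrc on M58040 was higher with retinoic acid in the conceptus by 1.57 ± 0.30 (SE), or 2.97-fold (limma, adjusted p = 0.0165), the 1 member called where 1.9% of all probe sets were. It was above control on 4 of 4 retinoic acid arrays there, by 1.29 to 1.70. The call was lost, at values of 1.49 to 1.74, without the control of embryo bone (adjusted p = 0.119), embryo liver (adjusted p = 0.0694) or whole embryo (adjusted p = 0.058). The brighter Tfrc probe set, BF417032, was not called in the conceptus. With single arrays left out it ranged from 0.59 to 0.87 and was called in 0 of 22 cases. Ireb2 was at 1.20 ± 0.34 there (adjusted p = 0.0895) and was called without the retinoic acid array of maternal liver at day 20 (adjusted p = 0.00824), as was Slc40a1 on AI229664 without retinoic acid replicate 2 of whole embryo (adjusted p = 0.046). In maternal liver 0 members were called, where 12 probe sets were (0.0756%), and 1 member had an unadjusted p under 0.05, Ireb2 (1.10 ± 0.40). Its retinoic acid array of day 20, the one with muscle genes, was 2.51 above control, and those of day 12 were 0.15 and 0.20 above. With single arrays left out the Ireb2 value in maternal liver ranged from 0.30 to 1.73. The effects of retinoic acid in mother and conceptus were then set against each other. For Tfrc on M58040 maternal liver minus conceptus was -1.30 ± 0.46 (limma, adjusted p = 1), and 0% of all probe sets and 0 members were called, while 465 of all had an unadjusted p under 0.05.

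**Figure D4:**
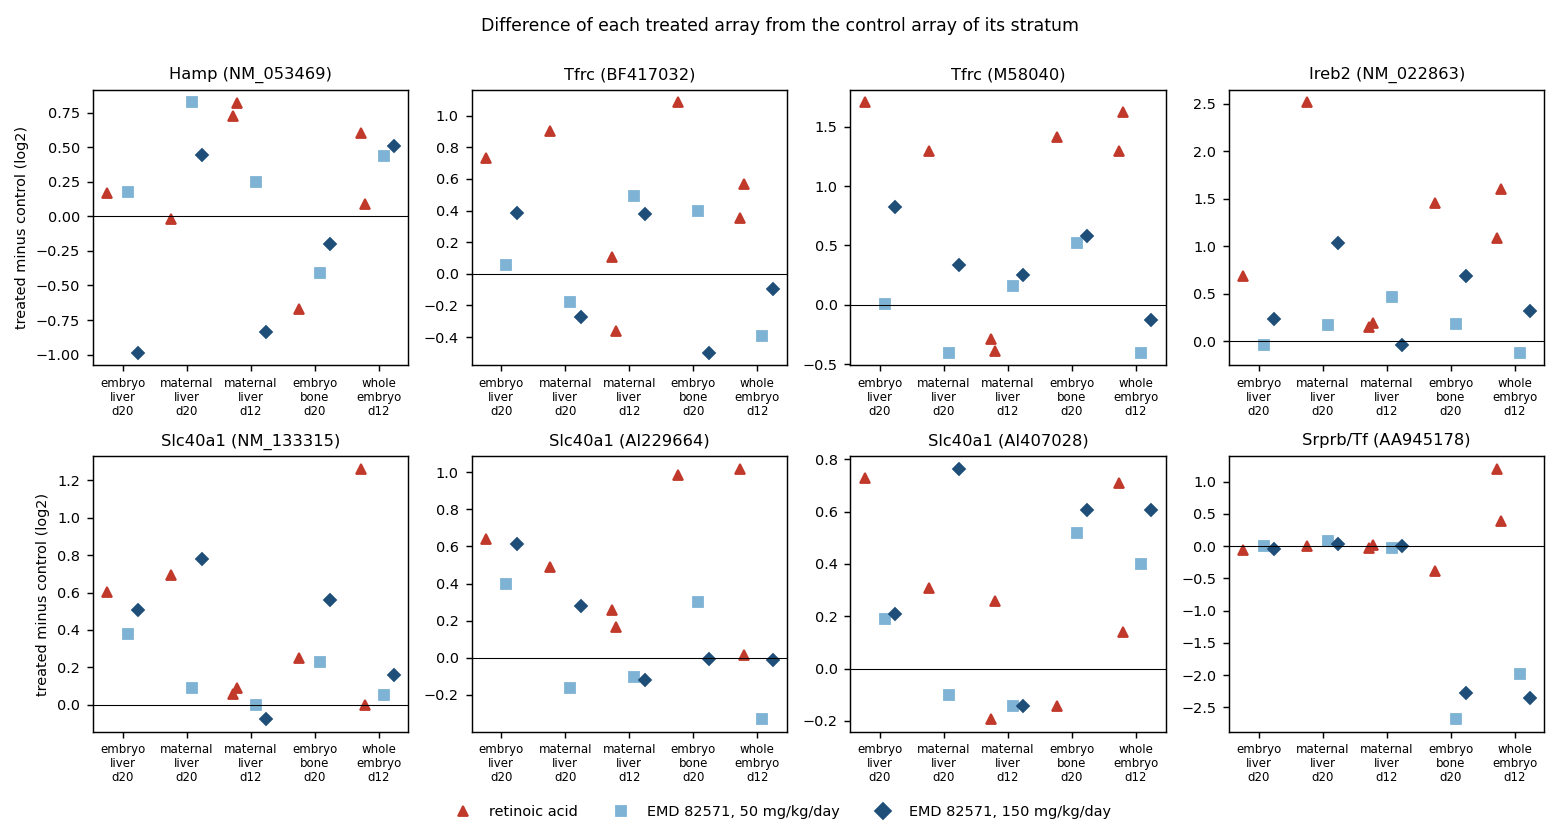
Difference of each treated array from the control array of its stratum (log2, vertical axis) for the 8 probe sets, by stratum (horizontal axis). All 7 retinoic acid arrays lie above 0 for Ireb2, and the EMD 82571 arrays of embryo bone and whole embryo lie at or below -1.98 for the shared Srprb/Tf probe set.

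EMD 82571 left the members without a call. Over all strata 0 of 7 were called for EMD150 and 0 for EMD50 against control (limma), where 0% of all probe sets were called at either dose and 2925 and 253 had an unadjusted p under 0.05. At that level there were 2 members for EMD150, both of them Slc40a1 probe sets, NM_133315 (0.39 ± 0.18, adjusted p = 0.259) and AI407028 (0.41 ± 0.17, adjusted p = 0.233), and 0 for EMD50. Hamp had its lowest value with EMD150 in embryo liver (11.09, against 12.08 in control) and in maternal liver of day 12 (11.13, against 11.96), and was above control in maternal liver of day 20 (8.84, against 8.40). Its difference over all strata was -0.21 ± 0.26 (adjusted p = 0.657) for EMD150. In control, EMD50 and EMD150, Ireb2 had 7.68, 7.85 and 8.72 in maternal liver of day 20 and 8.96, 9.43 and 8.92 in that of day 12. It had 7.38, 7.34 and 7.62 in embryo liver, 7.27, 7.45 and 7.96 in embryo bone and 7.59, 7.47 and 7.91 in whole embryo. EMD150 was thus the highest of these in every stratum but maternal liver of day 12, while EMD50 had no common place. Over all strata the EMD150 difference of Ireb2 ranged from 0.28 to 0.58 with single arrays left out, called in 0 of 22 cases.

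EMD150 was also compared with retinoic acid, where 14.4% of all probe sets and 0 members were called. Ireb2 was lower with EMD150 by -0.71 ± 0.24 (adjusted p = 0.0551), close to the threshold, and 4 of 7 members had an unadjusted p under 0.05. With the retinoic acid replicate 2 of maternal liver at day 12 left out 3 members were called, and 1 was called without the control of maternal liver at day 20, either retinoic acid array of whole embryo, or the EMD50, EMD150 or replicate 1 retinoic acid array of maternal liver at day 12. Of the 70 other iron genes 10 were called (14.3%), 1 higher and 9 lower with EMD150.

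The shared Srprb/Tf probe set differed from control under EMD 82571 by more than any of the 7 others did, in embryo bone and whole embryo. In embryo bone it had 11.66 with retinoic acid, and 12.04, 9.36 and 9.76 in control, EMD50 and EMD150. In whole embryo it had 12.09 and 11.28 with retinoic acid, and 10.89, 8.91 and 8.54 in control, EMD50 and EMD150. Both doses were thus below control in both tissues, by -2.69 to -1.98. In the livers the treated arrays stayed within -0.06 to 0.07 of control. Over the conceptus the mean difference of both doses was -1.56 ± 0.41 (limma, adjusted p = 0.451). There 0 of 7 members and 0% of all probe sets were called, and 1 member and 1733 probe sets had an unadjusted p under 0.05. In maternal liver the mean difference was 0.02 ± 0.50 (adjusted p = 1), with 0 members and 0% of all probe sets called and 123 at an unadjusted p under 0.05. Between maternal liver and conceptus the effect differed by 1.58 ± 0.65 (adjusted p = 0.999), and again 0 members and 0% of all probe sets were called, while 340 of all had an unadjusted p under 0.05.

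Hepatocyte markers in embryo bone and yolk sac markers in whole embryo were low on the same arrays. In embryo bone the mean of the 8 hepatocyte markers was 9.64 with retinoic acid and 9.66, 8.04 and 8.33 in control, EMD50 and EMD150. In whole embryo the mean of 5 markers of the visceral yolk sac, which makes transferrin and other plasma proteins before the liver does, was 11.28 and 10.44 with retinoic acid and 10.40, 9.33 and 9.08 in control, EMD50 and EMD150. The other pairing was less close. Yolk sac markers in embryo bone averaged 8.32 with retinoic acid and 9.32, 8.12 and 8.71 in control, EMD50 and EMD150. Hepatocyte markers in whole embryo averaged 9.24 and 9.30 with retinoic acid and 8.39, 8.13 and 7.93 in control, EMD50 and EMD150. The EMD50 bone array is also the one with the wide Gapdh gap. Ttr is in both marker sets. The yolk sac set averaged 11.13 to 11.31 in embryo liver and 10.06 to 10.29 in maternal liver. Its mean therefore does not tell yolk sac RNA from liver RNA. The part of liver or yolk sac RNA in these values was not tested.

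**Figure D5:**
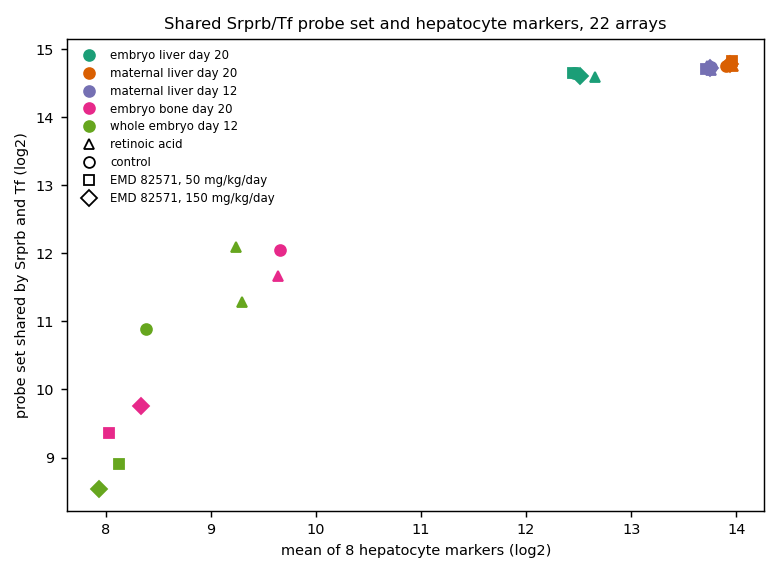
Level of the shared Srprb/Tf probe set (log2, vertical axis) against the mean of 8 hepatocyte markers (log2, horizontal axis) on the 22 arrays, coloured by stratum with symbols for treatment. All liver arrays lie between 14.59 and 14.83, and the bone and whole embryo arrays spread from 8.54 to 12.09 together with the markers.

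The genes whose pattern came closest to each member were found by Pearson's r over the 22 arrays, which share strata, and again after the mean of each stratum was taken off. Hamp was closest to Agpat2 (r = 0.919), and within strata to Clybl (0.794). The shared Srprb/Tf probe set was closest to Fgg (0.993), Fga and Apoh, which encode plasma proteins of the liver, and to Fgg (0.969) within strata. Slc40a1 was closest to Mgst2 (0.968), Tfrc to Prdx3 (0.902) and Ireb2 to Rab5b (0.887). Within strata Slc40a1 was closest to Kng2l1 (0.919), Tfrc to Sbno1 (0.912) and Ireb2 to Ranbp2 (0.918). Among the members themselves, Ireb2 and Tfrc had r = -0.127 over all arrays and 0.699 within strata. The probe sets of a gene followed each other over all arrays, with r = 0.921 for the pair of Tfrc and 0.944 to 0.967 for those of Slc40a1, but within strata AI229664 and AI407028 of Slc40a1 had r = 0.255.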

How the data were processed

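RNA of 22 samples was measured on 1 single-colour 3′ expression array each. The deposited values are log2 probe set levels made by the authors with RMA, which the submitters' processing notes name and which corrects background, normalizes between arrays and summarises the probes of a set. Its version, whether all arrays were processed jointly and any pooling of RNA were not given in the sources used here. Of 15923 rows, 57 array controls were left out and 15866 were tested without a filter on low values. Symbols came from the platform's probe table. Of the probe sets 12783 have 1 symbol, and Entrez identifiers matched the GRCr8 gene table for 12748 of these.

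Samples were grouped by tissue, day and treatment as labelled. Tests used limma 3.58.1 (R 4.3.3; eBayes with an intensity trend, two-sided, Benjamini-Hochberg over all probe sets, call at an adjusted p under 0.05). The day comparison used 9 maternal liver arrays and the organ comparison 8 arrays of day 20, both with treatment as a block (4 and 3 residual degrees of freedom). Treatments used all 22 arrays with stratum as a block (14 degrees of freedom), or with separate effects in mother and conceptus (11), where the 2 doses of EMD 82571 were averaged. Stratum means of the member probe sets weight arrays equally, and group means of other single genes weight treatments equally. Fitted differences follow the blocks. The number of arrays limits the precision. Fold changes of RMA values understate large changes near the background and near saturation.

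The members and lists were chosen with earlier results of these data known. Of 103 listed iron genes 73 were measured, Ireb2, Tfrc and Slc40a1 among them. Each gene is given by its brightest probe set, and up to 5 called genes per list and direction with the largest difference could be named in the day and organ comparisons. For likeness the 3 genes with the highest r were kept. Alternatives were quantile normalization, no trend, robust variance, a filter on level, array weights, and leaving out arrays or strata. The scripts were tested on simulated data. Sequences are from RefSeq, in which all 5 members have a promoter window. Figures were drawn with matplotlib 3.10.9.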

Additional observations from a re-analysis of the deposited data

Results flagged for a closer look

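In 40 groups of 4 or 5 arrays (8 probe sets in 5 strata) the highest or lowest array was set against the others, and 3 stood apart. Chance flags about 1 in 20 groups. Hamp was at 11.092 on the EMD150 array of embryo liver, the lowest of 4, with the others between 12.079 and 12.255. Slc40a1 was at 10.537 on probe set NM_133315 and at 8.3463 on AI229664 on retinoic acid replicate 1 of whole embryo, the highest of 5 on both, with the others between 9.272 and 9.4331 and between 6.996 and 7.3404. The same array had the highest mean of the yolk sac markers in its stratum (11.28). These markers do not tell yolk sac from liver, and the part of RNA of either was not tested.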

How the results depend on the processing

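The Hamp differences between days and between organs and both Tfrc differences between organs kept their direction and their call under every alternative run. The titles share the codes RA5 and RA56 between groups, and what these mark is not stated. The differences between RA5 and RA56 in whole embryo and in maternal liver of day 12 correlated at r = -0.14 over all probe sets, so the codes were not taken as pairs. With the code as a further term (a replicate block, chosen after seeing the data) 0 members were called for retinoic acid against control, where limma called 0 of all probe sets (4 members and 1788 of all had an unadjusted p under 0.05), and Ireb2 was at 1.03 (adjusted p = 0.0916). The number of members called did not change in the other 10 comparisons that could be fitted, and embryo liver against maternal liver holds only RA56. The number of member probe sets called (of 7) moved as follows. Between days it was 3 without the 3 retinoic acid arrays of maternal liver at day 20, embryo bone and replicate 2 of whole embryo, and 1 to 3 with single arrays left out. For retinoic acid against control over all strata it was 3 with only probe sets above the median level, 3 with array weights and 3 without maternal liver of day 12. It was 0 without whole embryo, embryo bone, embryo liver or maternal liver of day 20 and 0 without the 3 retinoic acid arrays, and 0 to 2 with single arrays left out. For EMD150 against retinoic acid it was 1 with the filter on level and 3 without maternal liver of day 12, and 0 to 3 with single arrays left out. For retinoic acid in maternal liver it was 1 without day 12. In the conceptus it was 3 with array weights, 0 without whole embryo, embryo bone or embryo liver and 2 without either maternal stratum, and 0 to 2 with single arrays left out. For the effect in maternal liver minus conceptus it was 1 with array weights and 0 to 1 with single arrays left out, the 1 being without the retinoic acid array of maternal liver at day 20. Among the brightest probe sets between days, between organs, for EMD150 and for retinoic acid over all strata, uncalled values that changed sign were Tfrc between days (-0.1445 without the 3 retinoic acid arrays, -0.06174 on M58040, -0.1445 to 0.5122 with single arrays left out), Tfrc for EMD150 (0.09456 after quantile normalization, 0.07054 with array weights, 0.09612 without embryo bone, 0.04 without maternal liver of day 20, 0.3724 on M58040, -0.179 to 0.1692 with single arrays left out), Hamp for EMD150 (-0.3672 to 0.01627), Hamp for retinoic acid without maternal liver of day 12 (-0.02717) and the shared Srprb/Tf probe set for retinoic acid (-0.1524 without whole embryo, -0.07807 to 0.4345 with single arrays left out). Over all 96 pairs of a probe set and a comparison, 35 took both signs with single arrays left out, and 1 of these was ever called (Tfrc on M58040 between days). The causes were not tested. With 1 array per treatment in most strata, differences within a stratum have no replicate check.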
